A study of Mus musculus with 20 samples.

Results

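Growth cones of subcerebral projection neurons that were wild-type (WT) or null for Bcl11b (labelled KO) were compared by RNA sequencing. The comparison takes the 10 growth cone libraries among the 20 libraries of the series, 5 labelled WT and 5 labelled KO. They were chosen by their titles alone. The growth cones came from brainstem and spinal cord of mice at postnatal day 1, and both genotypes are present under each of the experiment numbers 7 to 11. The other 10 libraries hold somata of the same neuron type and age, 5 of each genotype, and are used below to set the same contrast beside the growth cone values. They carry other experiment numbers, from 12 to 26, of which 12 holds only WT and 15 only KO. Between 1.8 and 3.1 ng of RNA entered a soma library. Compartment and experiment number therefore cannot be told apart. The labels do not say which part of Bcl11b was removed, in which cells, how many animals gave a library, or whether libraries of a group came from separate animals. The p-values therefore measure the spread between these libraries, which may be technical.

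Bcl11b, also called CTIP2, is a zinc-finger transcription factor that subcerebral projection neurons express at high levels and need for normal outgrowth of their axons to the brainstem and spinal cord. Growth cones are the motile tips of growing axons. They sense guidance cues through surface receptors, steer by remodelling actin and microtubules, and hold their own pool of mRNAs, ribosomes and mitochondria. A fraction of growth cones gives bulk RNA, so a change in the number of growth cones that carry a transcript and a change in its amount per growth cone cannot be told apart.

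Total counts were 21657575 to 29323028 per growth cone library, with 17433 to 19650 genes detected by at least 1 count. Between 0.19 and 3.1 ng of RNA entered a growth cone library, per the labels' protocols. KO 7, KO 11 and WT 8 stood apart from the other growth cone libraries. Their median Spearman correlations with the other 9, across 11793 genes whose mean reached 5 CPM (counts relative to the library total), were 0.776, 0.784 and 0.798, against 0.819 to 0.845 for the other 7. They also had 806, 646 and 431 of these genes at 3 counts or fewer, against 68 to 355 in the other growth cone libraries and 5 to 81 of 10254 genes in somata. Genes are not independent replicates, so these correlations are descriptions.

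Markers of cells that surround the axons were present in the growth cone libraries of both genotypes. Summed over the Hox genes, which are transcribed in brainstem and spinal cord and not in cortex, the level was 133 to 360 CPM in WT and 147 to 383 CPM in KO growth cones, against 0.0875 to 0.448 CPM in somata. The 12 astrocyte and radial glia markers summed to 2608 to 3198 CPM in WT, 2671 to 3304 CPM in KO and 52.3 to 609 CPM in somata. Genes used to mark cortical projection neurons were present as well. The 15 subcerebral identity genes summed to 1170 to 1425 CPM in WT, 1037 to 1538 CPM in KO growth cones and 3020 to 3699 CPM in somata. The 12 callosal identity genes, which mark another class of cortical projection neuron, summed to 1331 to 1586 CPM in WT, 1330 to 1651 CPM in KO growth cones and 392 to 580 CPM in somata. Of a mean callosal sum of 1487 CPM in WT growth cones, Ptn and Lmo4 held 611 and 441 CPM. Pcp4 held 317 CPM of a mean subcerebral sum of 1258 CPM. The sums thus rest in part on few genes, and in growth cones they do not single out the labelled class. In WT somata the means of Ptn, Lmo4 and Pcp4 were lower than in growth cones, at 175, 38.3 and 40.7 CPM. Which cells gave these transcripts in the growth cone libraries was not tested. The genotype ranges overlapped for each of these lists, and the part of surrounding cells in the gene values below was not tested.

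The targeted gene was examined first. The deposited table places Bcl11b (ENSMUSG00000048251.15, minus strand) on chromosome 12 from 107910403 to 108003602, in coordinates of mouse build GRCm38. WT growth cones 7 to 11 held 77.9, 117, 129, 109 and 104 CPM of Bcl11b. In the libraries labelled KO the values were 71.8, 79.5, 146, 101 and 149 CPM, in the same order of experiment numbers. The WT range lay inside the KO range, and KO exceeded WT in 2 of the 5 experiments. The edgeR log2 fold change, KO minus WT, was 0.03 ± 0.25 (SE, n = 5 a side), with a 95% interval of -0.51 to 0.57. The exact two-sided permutation test of mean log2(CPM + 0.5) gave a difference of -0.02 and p = 0.944 (5 against 5 libraries can give no p below 0.00794). Without KO 7, KO 8, WT 8 or WT 9 this difference was 0.12, 0.08, 0.02 or 0.06. Which exons the reads fall on is not in a table of gene totals, so the counts do not check the genotype labels. In somata labelled KO, Bcl11b went against the label, at 1010 to 1156 CPM against 503 to 758 CPM in WT.

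Bcl11a, the paralog of Bcl11b, encodes a related zinc-finger factor. WT growth cones held 195, 204, 257, 215 and 285 CPM of Bcl11a and those labelled KO held 208, 200, 243, 222 and 209 CPM. The groups overlapped, with a log2 fold change of -0.09 ± 0.15 (SE, n = 5 a side, 95% interval -0.42 to 0.23). In somata Bcl11a was higher in KO, at 189 to 238 CPM against 128 to 145 CPM in WT (log2 fold change 0.60 ± 0.09, SE, n = 5 a side; edgeR adjusted p = 0.00807). Mdga1, an adhesion protein with immunoglobulin domains, and Cntnap2, an axonal adhesion protein of the neurexin superfamily, varied more. Mdga1 was at 23.5, 3.50, 13.5, 9.46 and 29.5 CPM in WT and 11.9, 16.6, 27.5, 14.8 and 7.06 CPM in KO growth cones. Its log2 fold change was -0.03 ± 0.63 (SE, n = 5 a side), with an interval of -1.40 to 1.35, so a change of 2-fold in either direction was not resolved. Cntnap2 was at 83.0, 86.4, 106, 93.7 and 36.2 CPM in WT and 94.6, 135, 83.4, 66.7 and 60.5 CPM in KO. Its log2 fold change was 0.12 ± 0.31 (SE, n = 5 a side).

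**Figure D1:**
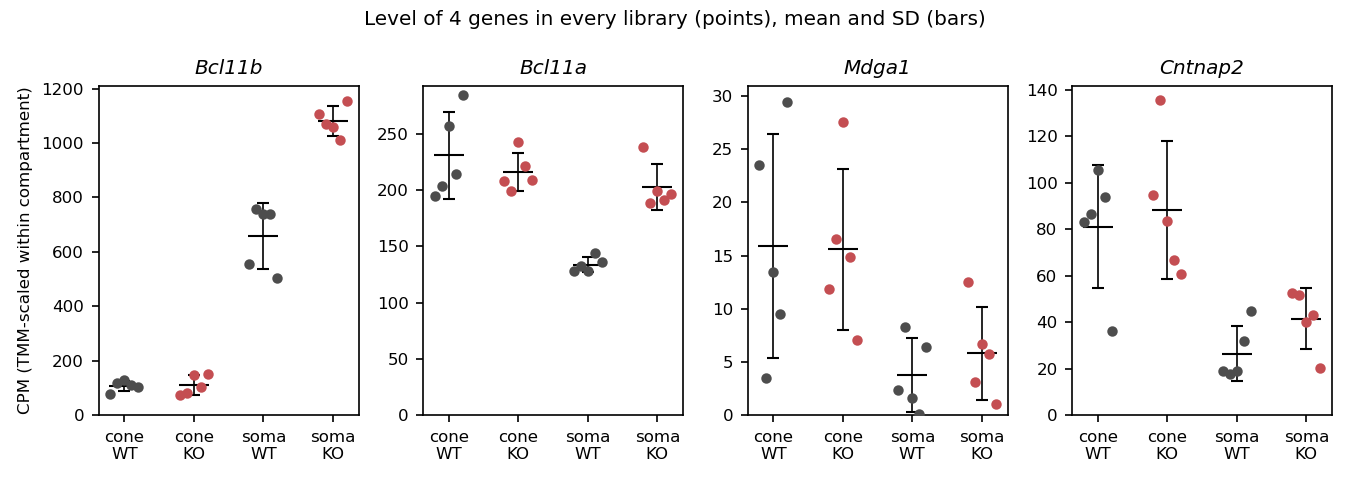
Level in CPM of Bcl11b, Bcl11a, Mdga1 and Cntnap2 (y axis) in each library of the 4 groups (x axis); points are libraries, the bar is the mean and the whiskers the SD of 5 libraries, and levels are scaled within a compartment. The growth cone groups overlap for all 4 genes, while the soma groups are apart for Bcl11b (503 to 758 CPM in WT, 1010 to 1156 CPM in KO) and for Bcl11a (128 to 145 CPM and 189 to 238 CPM).

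Over the whole transcriptome, no gene differed between KO and WT growth cones at a false discovery rate (FDR) of 0.05. The edgeR quasi-likelihood test was applied to 15419 genes, with Benjamini-Hochberg adjustment over all of them, and called 0 (0%). At an unadjusted p under 0.05 it gave 329 genes, or 2.13% of those tested, where 5% would be 771. Of these, 183 were higher (1.19%) and 146 lower (0.947%) in KO. DESeq2's Wald test on the same genes called 11 genes (0.0713%), and limma voom with sample quality weights called 0, with 654 genes at an unadjusted p under 0.05. Leaving out KO 7, KO 11 and WT 8 together, an alternative chosen after the data were seen, the edgeR test again called 0, with 440 genes at an unadjusted p under 0.05. In 74 genes (0.48%) the 5 KO libraries did not overlap with the 5 WT libraries, 36 of them higher (0.233%) and 38 lower (0.246%). A random split of 10 libraries into 5 and 5 leaves no overlap with a probability of 0.00794, a larger share than the 0.48% seen. The median log2 fold change over all tested genes was 0.01 and the median absolute value 0.32.

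How small a difference could be resolved depended on the level of the gene. The 95% interval of the fold change lay within 2-fold in either direction for 3730 genes (24.2%). These made up 70 of 70 genes at 1000 CPM or more and 1968 of 2151 genes (91.5%) at 100 to 1000 CPM. The share was 31.3% of 5353 genes at 20 to 100 CPM, and 4 of 4200 genes at 5 to 20 CPM. The median SE of the log2 fold change rose from 0.17 in the most abundant class to 0.92 at 5 to 20 CPM. A lack of calls among genes under about 20 CPM is therefore not evidence of equal levels at this spread. The same holds for most genes at 20 to 100 CPM.

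**Figure D2:**
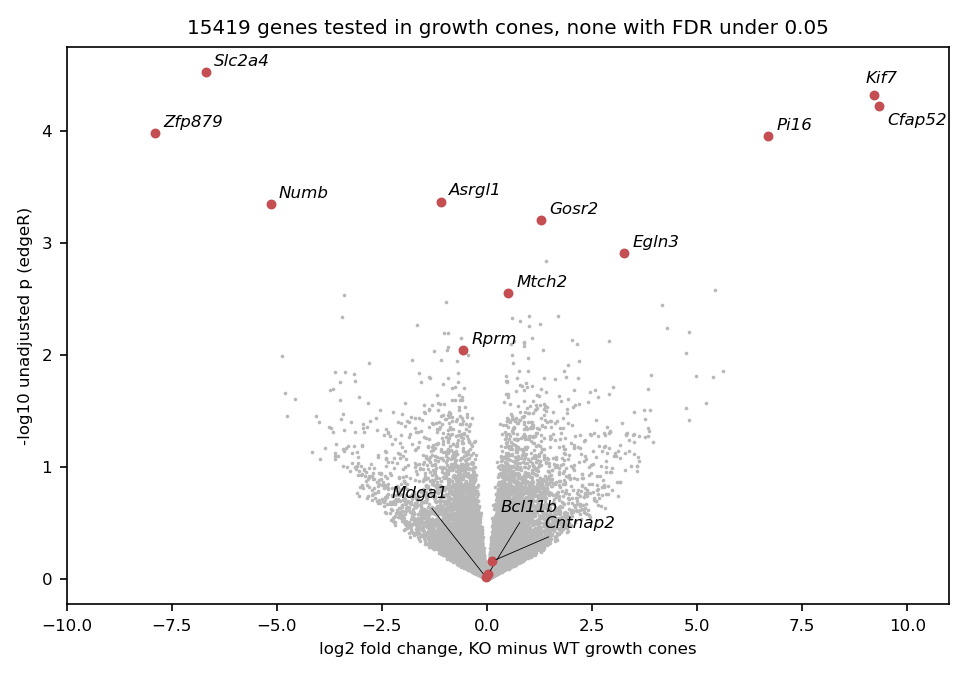
Log2 fold change between KO and WT growth cones (x axis) against -log10 of the unadjusted edgeR p (y axis) for the 15419 genes tested, 1 point a gene; red points are genes named in the text. Bcl11b, Mdga1 and Cntnap2 lie at the bottom centre, and no gene passes the adjusted threshold; the x positions of Kif7, Cfap52, Slc2a4 and Zfp879, which are at or near 0 counts in 1 group, depend on the prior count of the fit.

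The genes with the lowest p among those reaching 5 CPM in the higher group are given as genes that did not pass. On the higher side, the most precisely measured was Mtch2, a mitochondrial outer membrane protein (chromosome 2, 90847155 to 90866810, GRCm38). Mtch2 was at 291, 243, 258, 280 and 251 CPM in WT 7 to 11 and at 407, 411, 332, 391 and 322 CPM in KO 7 to 11. Every KO library lay above every WT library, with a log2 fold change of 0.49 ± 0.13 (SE, n = 5 a side; edgeR adjusted p = 0.999). Gosr2 encodes a Golgi SNARE protein (chromosome 11, 103676849 to 103697898). It was at 86.4, 36.2, 109, 85.2 and 92.9 CPM in WT and 255, 157, 206, 237 and 148 CPM in KO. Its groups did not overlap either, with a log2 fold change of 1.29 ± 0.28 (SE, n = 5 a side; edgeR adjusted p = 0.999, DESeq2 adjusted p = 0.0189).

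The other genes on the higher side were less abundant. Egln3, a prolyl hydroxylase that acts on hypoxia-inducible factor, was at 0.825, 4.20, 1.57, 0.589 and 1.57 CPM in WT and 24.9, 7.10, 14.5, 15.1 and 22.7 CPM in KO (log2 fold change 3.26 ± 0.78, SE, n = 5 a side; edgeR adjusted p = 0.999). Pi16 was at 0 to 0.139 CPM in WT and 1.93 to 11.1 CPM in KO, with the lowest edgeR adjusted p of the set, 0.345. Nlrx1, a mitochondrial member of the NLR family, was at 0 to 1.60 CPM in WT and 3.35 to 43.2 CPM in KO. Glipr2 was at 17.0 to 38.1 CPM in WT and 39.5 to 105 CPM in KO. None of these 4 genes overlapped between groups, and none passed the edgeR test.

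On the lower side, Asrgl1, an asparaginase-like enzyme (chromosome 19, 9109868 to 9135636), was at 70.1, 144, 127, 98.1 and 115 CPM in WT. In KO it was at 53.7, 41.6, 49.6, 61.8 and 52.8 CPM. The KO libraries lay close together and below every WT library, with a log2 fold change of -1.09 ± 0.23 (SE, n = 5 a side; edgeR adjusted p = 0.99, DESeq2 adjusted p = 0.0154). Ppp1r9a encodes neurabin, an actin-binding scaffold of protein phosphatase 1 that is enriched in neurons. It was at 60.8, 59.2, 74.2, 54.0 and 52.2 CPM in WT and 22.8, 39.4, 35.2, 33.6 and 22.9 CPM in KO, without overlap (log2 fold change -0.96 ± 0.27, SE, n = 5 a side; edgeR adjusted p = 0.999). Numb, an endocytic adaptor that antagonises Notch, was at 1.03 to 10.5 CPM in WT and 0.0427 to 0.473 CPM in KO. Spock3, a secreted proteoglycan, was at 56.9 to 107 CPM in WT and 19.9 to 53.9 CPM in KO. Slc33a1, an acetyl-CoA transporter, was at 12.9 to 33.0 CPM in WT and 4.80 to 8.85 CPM in KO, and Dhtkd1, a mitochondrial dehydrogenase subunit, at 2.36 to 11.5 CPM in WT and 0.0728 to 0.954 CPM in KO.

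**Figure D3:**
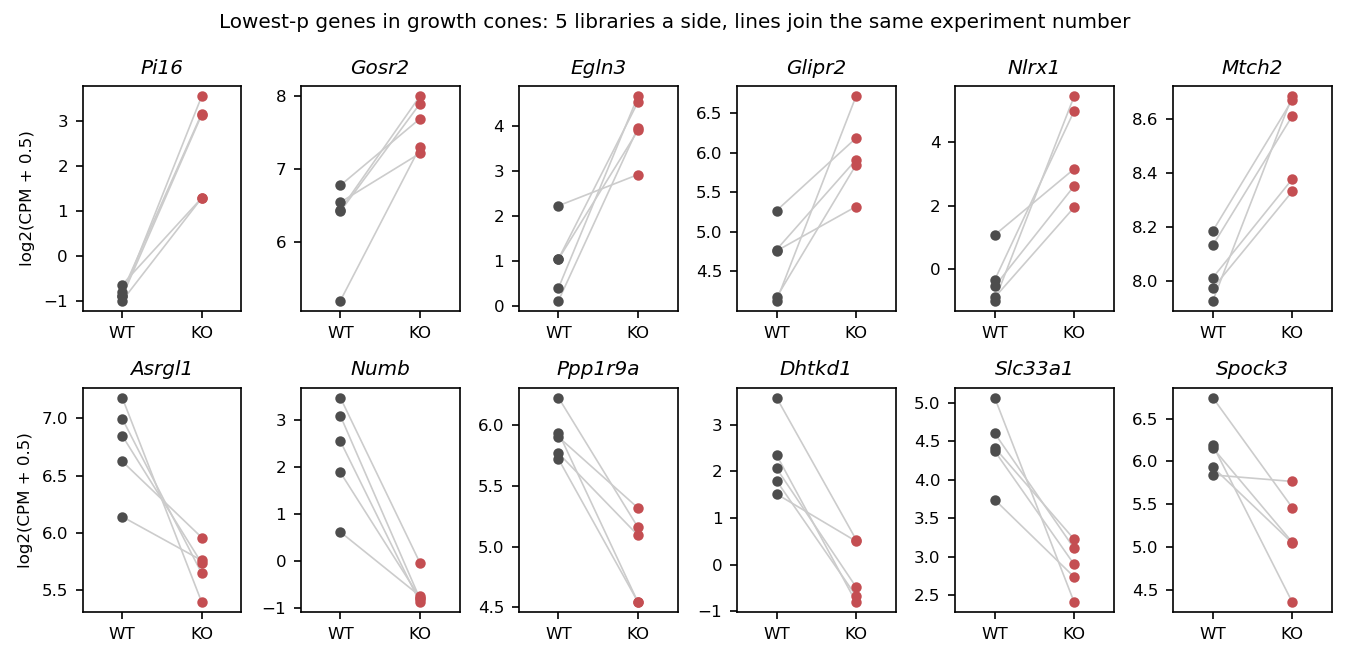
log2(CPM + 0.5) (y axis, scaled per panel) in the 5 WT and 5 KO growth cone libraries (x axis) for the 12 genes of lowest p, 6 higher and 6 lower in KO; grey lines join libraries with the same experiment number. The 2 groups of 5 points do not overlap in any panel, which the choice by lowest p favours, and none of the 12 genes passed the edgeR test.

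As their groups did not overlap, the 12 genes could hardly change direction without KO 7, KO 11 and WT 8. Only the size of the difference is informative there. Mtch2 then had a log2 fold change of 0.48, Gosr2 of 1.09 and Asrgl1 of -1.01, while Spock3 went from -1.01 to -0.59 and Nlrx1 from 5.42 to 3.47. Pi16, Gosr2, Nlrx1, Numb, Dhtkd1 and Slc33a1 overlap an annotated gene on the opposite strand. The use of strand in counting is not given in the sources used here, so reads of such partners could not be separated. The 11 DESeq2 calls comprised Pi16, Gosr2, Egln3, Nlrx1, Tstd2, Kif7 and Cfap52 (higher) and Asrgl1, Numb, Zfp879 and Slc2a4 (lower). Kif7, a kinesin of the Hedgehog pathway, also overlaps annotated genes on the opposite strand. It had 3 counts or fewer in all 5 WT libraries and 0.947 to 6.02 CPM in KO. Kif7 was thus at least 25.96-fold higher against a floor of 3 counts per library, or 18.4-fold without KO 8. Cfap52 was at least 28.3-fold higher on the same basis, or 21.3-fold without KO 9. Slc2a4, the insulin-responsive glucose transporter, and Zfp879 had 3 counts or fewer in all 5 KO libraries and were at least 18.0-fold and 25.8-fold lower. The Zfp879 bound rested on WT 9 and was 10.4-fold without it. These floors cover counting error only.

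The structural genes of the growth cone were among the most tightly bounded. Of 40 actin, tubulin and growth-associated genes, all 40 were tested, 19 had a log2 fold change above 0 and 21 below, and the edgeR test called 0. Their median was -0.00, beside 0.01 over all genes, and the values ran from -0.43 to 0.27. For 39 of the 40, all but Vasp, the 95% interval lay within 2-fold, against 24.2% of all genes. That share depends on level and was 91.5% for all genes at 100 to 1000 CPM. Tuba1a, an alpha-tubulin of developing neurons, was at 8054, 6430, 7778, 7964 and 7533 CPM in WT and 10048, 6472, 9030, 8717 and 7010 CPM in KO (log2 fold change 0.13 ± 0.14, SE, n = 5 a side). Dcx, a microtubule-binding protein of migrating and extending neurons, had the lowest p of the list. It was at 247, 404, 495, 466 and 367 CPM in WT and 253, 327, 294, 372 and 222 CPM in KO, with overlap and a log2 fold change of -0.43 ± 0.21 (SE, n = 5 a side; edgeR adjusted p = 0.999).

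Among 30 axon adhesion genes, 0 were called, 13 lay above and 17 below 0, and the median log2 fold change was -0.04. L1cam, an adhesion molecule of the corticospinal tract, was at 165, 204, 207, 184 and 200 CPM in WT and 121, 145, 152, 154 and 178 CPM in KO. KO was below WT in all 5 experiments, a pattern shown by 3.21% of all genes tested, and the groups overlapped through KO 11. The log2 fold change was -0.35 ± 0.15 (SE, n = 5 a side; edgeR adjusted p = 0.999), and the interval of -0.68 to -0.03 lies within 2-fold. Ncam1, the most abundant of the list per length, had a log2 fold change of -0.15 ± 0.15 (SE, n = 5 a side).

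Of 38 guidance receptors, 35 were tested, 0 were called, 12 lay above and 23 below 0, and the median was -0.11. Dcc, the netrin-1 receptor, did not overlap between groups. It was at 6.13, 3.24, 16.8, 19.1 and 9.03 CPM in WT and 25.3, 27.0, 26.4, 23.5 and 20.6 CPM in KO. All 5 KO libraries lay within a narrow band above the highest WT library, with a log2 fold change of 1.18 ± 0.54 (SE, n = 5 a side; edgeR adjusted p = 0.999). Neo1, the related netrin and RGM receptor, had a log2 fold change of 0.38 ± 0.34 and Epha4, a receptor for ephrins that acts in corticospinal guidance, of -0.31 ± 0.25 (SE, n = 5 a side). For 7 of the 35 receptors the interval lay within 2-fold.

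Of 39 guidance ligands, 36 were tested, 0 were called, and 18 lay on each side of 0, with a median of -0.01. Efna5, a GPI-anchored ephrin, had the lowest p of the list. It was at 14.7, 19.2, 19.2, 8.94 and 11.7 CPM in WT and 31.6, 47.4, 14.5, 40.1 and 17.1 CPM in KO, and its groups overlapped through KO 9 and KO 11 (log2 fold change 1.03 ± 0.46, SE, n = 5 a side; edgeR adjusted p = 0.999). Of 14 growth factor receptors, 13 were tested and 0 called. Ntrk2, the BDNF receptor, had a log2 fold change of -0.26 ± 0.29, and Fgfr1 of -0.78 ± 0.40, below WT in all 5 experiments (SE, n = 5 a side; edgeR adjusted p = 0.999 for both).

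The machinery of local translation was likewise without calls. Of 84 cytosolic ribosomal protein genes, 81 were tested, with 45 above and 36 below 0, a median of 0.01 and 79 intervals within 2-fold. Of 33 genes of mRNA binding and translation control, 33 were tested, with 19 above and 14 below 0 and a median of 0.06. Ybx1, an abundant mRNA-packaging protein, was at 9263 to 14616 CPM in KO and 10317 to 13274 CPM in WT, with a log2 fold change of -0.00 ± 0.14 (SE, n = 5 a side). Igf2bp2, an mRNA-binding protein of the zipcode-binding family, did not overlap between groups. It was at 10.3, 4.72, 16.1, 8.02 and 9.88 CPM in WT and 0.682, 0.797, 0.510, 3.89 and 0 CPM in KO (log2 fold change -3.05 ± 1.18, SE, n = 5 a side; edgeR adjusted p = 0.999). Without KO 10, whose 3.89 CPM was the highest of its group, the KO range was 0 to 0.797 CPM. That library was singled out after its value was seen. Without KO 7, KO 11 and WT 8, which had the most genes at 3 counts or fewer, the log2 fold change was -2.68.

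Energy and protein turnover genes were also without calls. Of 85 nuclear-encoded respiratory chain genes, 82 were tested, 45 above and 37 below 0, with a median of 0.02 and 74 intervals within 2-fold. Of 13 mitochondrially encoded protein genes, 12 were tested, 5 above and 7 below 0, with a median of -0.01 and 8 intervals within 2-fold. Their summed level was 2857 to 4589 CPM in WT and 2218 to 5177 CPM in KO. Of 38 proteasome genes, 34 were tested, 21 above and 13 below 0, with a median of 0.06. Psmb4, a subunit of the proteasome core, was at 126, 135, 124, 120 and 125 CPM in WT and 185, 173, 136, 147 and 240 CPM in KO. Its groups did not overlap, with WT 8 and KO 9 nearly equal, and the log2 fold change was 0.48 ± 0.18 (SE, n = 5 a side; edgeR adjusted p = 0.999). Among 32 vesicle release genes the median was -0.01 and 16 lay on each side of 0. Among 52 kinesin, dynein and dynactin genes, 40 were tested, with 14 above and 26 below 0 and a median of -0.08.

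**Figure D4:**
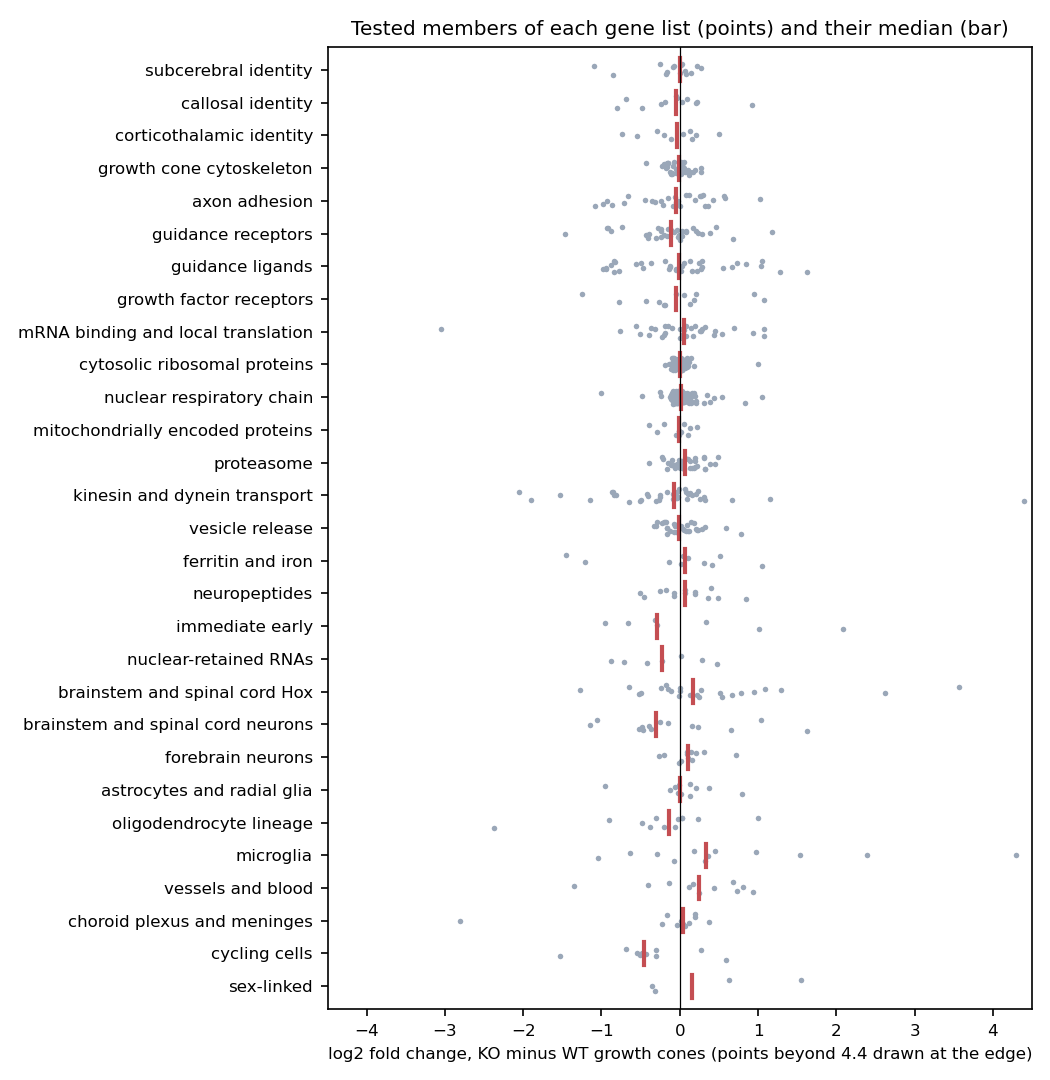
Log2 fold change between KO and WT growth cones (x axis) of the tested members of 29 gene lists (y axis), 1 point a gene, with the list median as a red bar and points beyond 4.4 drawn at the edge. Cytoskeletal genes lie between -0.43 and 0.27, while lists of scarce transcripts such as Hox and microglial genes spread over several log2 units; the edgeR test called no member of any list.

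Identity genes of cortical projection neuron classes were measured without a call. Of the 15 subcerebral genes, 8 lay above and 7 below 0, with a median of 0.00. Fezf2, the selector factor of this class, was at 117, 119, 82.5, 122 and 102 CPM in WT and 175, 43.0, 98.3, 168 and 58.6 CPM in KO. Its mean hardly differed (log2 fold change 0.00 ± 0.36, SE, n = 5 a side), and the KO libraries spread more widely than the WT ones. Pcp4 had a log2 fold change of -0.08 ± 0.32 in growth cones (SE, n = 5 a side). In somata it fell by 1.86 on the log2 scale, with an edgeR adjusted p of 0.00367. Its level there was lower, with a WT mean of 40.7 CPM against 317 CPM in WT growth cones. Of 12 callosal genes, 5 lay above and 7 below 0. Dkk3, a secreted Dickkopf-family protein, had the lowest p among them, at 13.7 to 42.2 CPM in WT and 24.1 to 68.0 CPM in KO, higher in KO in all 5 experiments (2.61% of genes tested showed this pattern). Its log2 fold change was 0.92 ± 0.41 (SE, n = 5 a side; edgeR adjusted p = 0.999).

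Markers of other cells varied widely from library to library. The 13 oligodendrocyte lineage genes summed to 615 to 2632 CPM in WT and 654 to 1917 CPM in KO. Of the 12 tested, 4 lay above and 8 below 0, with a median log2 fold change of -0.13 and 0 called. Mbp, a myelin protein, was at 688, 619, 1876, 200 and 1227 CPM in WT and 578, 1015, 1241, 558 and 357 CPM in KO, among the widest spreads of the abundant genes. Olig1, a lineage transcription factor, was at 102, 177, 133, 142 and 169 CPM in WT and 103, 114, 112, 117 and 73.6 CPM in KO (log2 fold change -0.48 ± 0.20, SE, n = 5 a side; edgeR adjusted p = 0.999). Trem2, a microglial receptor, did not overlap, at 0 to 0.933 CPM in WT and 2.88 to 12.3 CPM in KO, and did not pass the edgeR test. Groups without overlap were seen in 0.48% of all genes tested. Of the 12 microglia genes, all of them tested, 8 lay above and 4 below 0, from -1.05 to 4.29. They summed to 82.0 to 133 CPM in WT and 57.6 to 168 CPM in KO. These sums overlapped, and their part in the Trem2 values was not tested.

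Some abundant transcripts separated the KO libraries from each other more than the WT libraries. Summed ferritin and iron genes reached 65163 and 61354 CPM in KO 7 and KO 9 and 36540 and 34061 CPM in KO 8 and KO 10, with 50271 CPM in KO 11. The WT libraries lay at 45706 to 50726 CPM. Nearly all of this was Fth1 and Ftl1, the ferritin heavy and light chains. Malat1, a nuclear-retained RNA, had the reverse order in KO: 75.6 and 102 CPM in KO 7 and KO 9 against 568 and 462 CPM in KO 8 and KO 10. WT libraries held 135 to 326 CPM of Malat1. Over 2221 genes at 100 CPM or more, the median SD of log2 CPM was 0.378 in KO and 0.328 in WT. Without KO 7, KO 11 and WT 8, which were singled out for standing apart, it was 0.305 and 0.304. At the other end, Eif5a, Fkbp1a and Calm2 were among the 8 abundant genes that varied least. Eif5a, a translation elongation factor, was at 1014 to 1109 CPM in WT and 1121 to 1262 CPM in KO, without overlap and with a log2 fold change of 0.12 ± 0.10 (SE, n = 5 a side; edgeR adjusted p = 0.999).

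The same contrast in somata gave 109 calls among 14911 genes tested (0.731%). Of these 109 genes, 103 were also tested in growth cones, where 0 were called and 3 had an unadjusted p under 0.05, beside 2.13% of all genes. For 54 of the 103 the growth cone interval lay within 2-fold, against 24.2% of all genes tested, which were not matched for level. For 65 the interval left out the log2 fold change found in somata. That count is not a test, as the soma values were selected by their own p and carry error. Npy, a neuropeptide, was at 82.8 to 147 CPM in WT and 365 to 478 CPM in KO somata. In growth cones Npy was at 201, 253, 142, 135 and 87.2 CPM in WT and 279, 125, 189, 103 and 162 CPM in KO, with overlap and a log2 fold change of 0.07 ± 0.32 (SE, n = 5 a side). Without KO soma 22 or WT soma 22 the soma count was 67 or 68.

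Whether the genotype difference itself differed between growth cones and somata was addressed by the interaction term of a fit to the 20 libraries. It called 7 of 17645 genes (0.0397%). The fit shares its estimate of spread between compartments, although growth cone replicates differed more from each other than soma replicates. The error of the growth cone part may thus be understated. The 7 genes were Rprm, Cck, Cxxc5, Eln, Pid1, Egln3 and Morn5. Rprm, encoding the cell-cycle regulator Reprimo (chromosome 2, 54084093 to 54085552), went in opposite directions. It was at 133, 159, 143, 199 and 144 CPM in WT growth cones and 111, 119, 117, 100 and 76.1 CPM in KO growth cones, without overlap. In somata it was at 231 to 346 CPM in WT and 456 to 552 CPM in KO. The log2 fold change was -0.57 ± 0.18 in growth cones (SE, n = 5 a side; edgeR adjusted p = 0.999) and 0.83 ± 0.11 in somata (edgeR adjusted p = 0.00395), and the difference of -1.42 had an edgeR adjusted p of 0.00970.

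For Cck, Cxxc5, Eln and Pid1 the soma value was large and the growth cone value small. Cck, the cholecystokinin precursor, had log2 fold changes of -0.18 in growth cones and 2.01 in somata. Cxxc5, a zinc-finger protein, had -0.49 and 2.20. Eln, elastin, had -0.32 and 2.84, and Pid1 had 0.18 and -1.94. For Egln3 the values were 3.26 and -2.98, the soma value not passing its own test (edgeR adjusted p = 0.0919). Morn5 was at 0.105 to 7.57 CPM in WT growth cones and at 0 in all 5 KO growth cones. Against a floor of 3 counts per library it was at least 35.1-fold below the WT mean, or 28.2-fold without WT 7. The lowest WT value is itself near that floor. Morn5 was below the low-count filter of the growth cone fit. Leaving out 1 library at a time, Rprm, Cck, Cxxc5 and Morn5 passed in 20 of 20 fits, Eln in 18, Egln3 in 15 and Pid1 in 5. None of these genes passed with the experiment number as a replicate block. The number of calls was 11 without growth cone KO 7 and 12 without growth cone WT 7. Neither Bcl11b nor Bcl11a passed this test, with interaction log2 differences of -0.70 and -0.71 (edgeR adjusted p = 0.554 and 0.178).

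**Figure D5:**
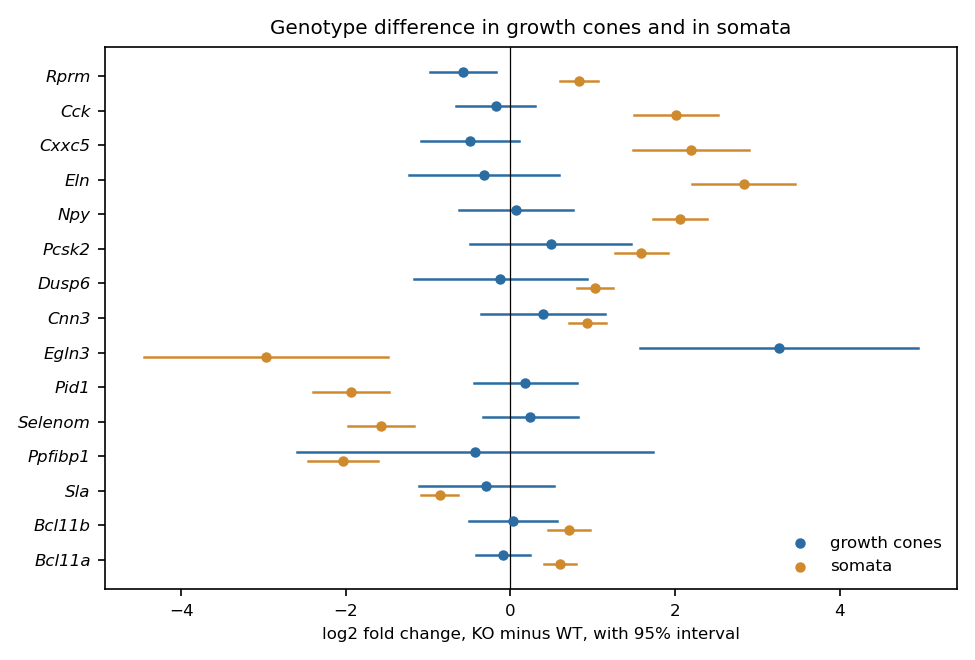
Log2 fold change, KO minus WT, with its 95% interval (x axis) in growth cones (blue) and in somata (orange) for 15 genes (y axis) called in somata or in the interaction test, with Bcl11b and Bcl11a. Rprm, Egln3, Cck, Cxxc5, Eln, Pid1 and Bcl11a are among the genes with values on opposite sides of 0 in the 2 compartments. No growth cone value passed the edgeR test. The growth cone intervals of Npy, Cck and Eln include 0 and lie apart from the soma intervals.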

How the data were processed

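The authors deposited raw gene counts, 1 column per library, without scaling between libraries, per the file headers. The submitters' processing notes name Trimmomatic 0.39, STAR 2.7.1a, featureCounts 1.5.0 and the build GRCm39. In the deposited table, however, the exons of 54435 of 55487 genes (98.1%) match GENCODE M21 (GRCm38) exactly, so its coordinates are given as GRCm38 and that release gave symbols. Strand use and the handling of multiply mapped reads are not given in the sources used here. Entries without a gene name and columns without a sample numbered 0 each. RNA was converted with SMART-seq v4 and Nextera XT, without molecular identifiers, per the labels' protocols, so floors cover counting error only. Total depth was 21657575 to 29323028 counts per growth cone library.

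Libraries were grouped by title. Counts of the growth cone libraries were filtered (filterByExpr, minimum count 10), scaled by TMM and tested with the quasi-likelihood F test of edgeR 4.0.16 in R 4.3.3, with Benjamini-Hochberg adjustment over all genes at an FDR of 0.05. Every edgeR adjusted p is from this test. Somata were fitted alone, and the interaction over 20 libraries. SE and 95% intervals derive from the F statistics. CPM and list sums use TMM scaling within a compartment, and permutation tests use log2(CPM + 0.5). DESeq2 1.42.0 and limma 3.58.1 served as alternatives, with other scalings, no filter, FDR 0.10, an experiment block and single libraries left out. Replicate counts differed beyond sampling noise and none was merged. The code was tested on simulated data.

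The named genes were Bcl11b, Bcl11a, Mdga1 and Cntnap2, the 6 genes of lowest p a side with at least 5 CPM in the higher group (no gene passed), the members of each list with the highest level per length or the lowest p, the 8 genes of largest and of smallest spread at 100 CPM or more, and up to 5 genes a side from the soma and interaction tests. Identifier-only symbols were skipped. The DESeq2 calls and Morn5 were named after their values were seen. Members and lists were chosen with earlier results of these data known.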

Additional observations from a re-analysis of the deposited data

Results flagged for a closer look

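Single libraries of some named genes and lists lay far from the other 4 of their group by Dixon's criterion at the 95% level. Of 206 groups checked, 12 (5.83%) did so, where chance flags about 1 in 20. Low-abundance genes gave 7 of these values. Egln3 was at 4.20 CPM in WT 8, against 0.589 to 1.57 CPM in the other WT growth cones. Nlrx1 was at 1.60 CPM in WT 9, against 0 to 0.287 CPM. Numb was at 0.473 CPM in KO 10, against 0.0427 to 0.0954 CPM. Dhtkd1 was at 11.5 CPM in WT 11, against 2.36 to 4.60 CPM. Zfp879 was at 10.5 CPM in WT 9, against 0.502 to 1.99 CPM, and at 0.0427 CPM in KO 7, against 0 in the other KO growth cones. The KO 7 value is 1 read, under the floor of 3 counts, and shows no difference from its group. Igf2bp2, at 3.89 CPM in KO 10, lay above 0 to 0.797 CPM in the other KO growth cones.

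Among more abundant features, S100a10 was at 106 CPM in WT 7, against 81.7 to 88.2 CPM. Neo1 was at 130 CPM in WT 11, against 57.6 to 74.0 CPM. Eif4e was at 370 CPM in KO 10, against 259 to 283 CPM, and Napb at 47.6 CPM in WT 8, against 119 to 144 CPM. The summed vesicle release genes were at 6609 CPM in WT 11, against 4918 to 5382 CPM.

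The edgeR interaction test called 7 genes for a genotype difference that was not the same in growth cones and somata. With 1 library left out, Rprm, Cxxc5, Cck and Morn5 passed in 20 of 20 fits, Eln in 18, Egln3 in 15 and Pid1 in 5. None of them passed with the experiment number as a replicate block. The growth cone minus soma difference on the log2 scale was -1.42 for Rprm (adjusted p = 0.00970), -2.72 for Cxxc5 (0.0121), -2.21 for Cck (0.0121) and -3.17 for Eln (0.0145). It was 6.20 for Egln3 (0.0257) and 2.09 for Pid1 (0.0425). For Morn5 the fitted difference was -10.35 (0.0121), a value that depends on the prior count of the fit because all 5 KO growth cones were at 0.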

How the results depend on the processing

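The growth cone comparison kept its count of 0 edgeR calls under the other scalings, without the low-count filter, at an FDR of 0.10, with voom weights, without the 3 libraries that stood apart and without any 1 library (0 to 0). DESeq2's Wald test called 11 genes (7 higher, 4 lower). Without the low-count filter, a setting added after the data were seen, DESeq2 called 117 (73 higher, 44 lower). The soma count of 109 was 393 with DESeq2 and 67 to 107 with 1 library left out. The interaction count of 7 was 262 with DESeq2, 21 at an FDR of 0.10 and 5 to 12 with 1 library left out. The Bcl11b difference between growth cone groups ranged from -0.14 to 0.12 with 1 library left out, changing sign without KO 7 (0.12), KO 8 (0.08), WT 8 (0.02) or WT 9 (0.06). Why the tools differ was not tested. Of 72 named genes, 47 kept their sign in all 25 alternatives to the growth cone fit and 18 were called in at least 1. Genes whose groups did not overlap could hardly change sign. Few genes under 20 CPM were bounded within 2-fold, and 31.3% of those at 20 to 100 CPM were. The median SD of log2 CPM over the growth cone libraries was 1.48 at 5 to 20 CPM.

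The labels do not say what the shared experiment number marks. Deviations of same-numbered growth cone libraries correlated at 0.06, 0.03, 0.07, 0.12 and 0.04 for numbers 7 to 11, and each library correlated best with its own number, a hint from the data and not from the design. With that number as a replicate block, edgeR called 0 growth cone genes (470 at an unadjusted p under 0.05) and DESeq2 117 (62 higher, 55 lower). The block gave 34 calls in somata and 0 in the interaction, where none of the 7 genes called without it passed. For Bcl11b the paired difference of -0.02 equals the unpaired one by construction, and the exact two-sided sign-flip test over the 5 pairs gave p = 0.938.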
